A study of Mus musculus with 12 samples.

Results

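The transcripts of 10 genes of the Keap1-Nrf2 antioxidant pathway were followed in cultured mouse bone-marrow-derived dendritic cells. They were taken by symbol from the count table: Nfe2l2, Keap1, Hmox1, Nqo1, Gclc, Gclm, Srxn1, Txnrd1, Osgin1 and Slc7a11, which are 10 of its 37991 genes. All 10 passed the filter on low counts, as did 18981 genes in all. Nfe2l2 encodes Nrf2, a transcription factor that binds antioxidant response elements as a dimer with a small Maf protein. Keap1 holds Nrf2 in the cytoplasm and delivers it to a Cul3 ubiquitin ligase, and oxidants or electrophiles that modify Keap1 let Nrf2 accumulate. The known targets of Nrf2 make glutathione, bring in its precursor cystine, reduce thioredoxin and degrade haem. Since Nrf2 is largely controlled at the level of the protein, which was not measured, the values below are transcript levels only.

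The cells came from C57BL/6 mice, either wild type (WT) or carrying Vav1/2/3-/-, the combined loss of 3 signalling proteins that act below Syk-coupled receptors, labelled here as KO. Each genotype was left untreated or given curdlan for 3 h. Curdlan is a particulate beta-glucan that binds the receptor Dectin-1, and its concentration is labelled 200 mg/ml, a unit that could not be checked. Of the 12 libraries, 3 fell in each group: the untreated ones were numbered 1, 2 and 4 (WT) and 1, 2 and 5 (KO), and those given curdlan 1, 2 and 4 (WT) and 2, 4 and 5 (KO). No label says if the libraries of a group came from separate animals or cultures, so the tests capture variation among libraries that may be technical.

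Library totals ran from 41421718 to 61217861 counts, and each group had its own sequencing lane (5 to 8), so an effect of lane and one of group cannot be told apart. In the label check no Vav transcript was lower past the threshold in libraries labelled KO by the main scaling. By log2 fold change against unstimulated WT, Vav1 was higher by 0.67, Vav2 by 2.07 and Vav3 by 0.48, all with an edgeR adjusted p under 0.05. Vav3 was no longer past it without WT unstimulated library 1 (adjusted p = 0.0944), KO unstimulated library 1 (0.0643) or KO unstimulated library 5 (0.0741), or by library size alone (log2 0.30, adjusted p = 0.11). With curdlan the values were 0.63, 2.05 and -0.19, the last not past the threshold (adjusted p = 0.315). By library size alone Vav3 was called lower in KO with curdlan (-0.44, adjusted p = 0.0249). The counts cover whole genes, so they do not separate exons inside and outside a deletion, and every direction between genotypes below rests on the labels. The dendritic cell markers Itgax (1488 CPM, counts scaled to a common library size, on average in unstimulated WT) and Cd74 (6024 CPM) were abundant, while Flt3 was near 2.12 CPM. The haemoglobin and T cell genes were close to 0.

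The 10 transcripts spanned a wide range of levels. Between genes, levels were compared as CPM per kilobase of merged exons. By this measure Hmox1, the inducible haem oxygenase that releases iron, carbon monoxide and biliverdin from haem, was the highest in unstimulated WT cells at 194 ± 10.5 CPM per kb (SD, n = 3). Nfe2l2 followed at 129 ± 7.88 CPM per kb, and Txnrd1, the cytosolic thioredoxin reductase, at 54.9 ± 2.76. Next came Srxn1, the sulfiredoxin that repairs over-oxidised peroxiredoxins, at 51.5 ± 1.04, and Slc7a11, the cystine-glutamate exchanger subunit xCT, at 33.3 ± 2.88 CPM per kb. These 5 genes kept this order by group mean in all 4 groups, though Srxn1 and Slc7a11 lay within their spread in unstimulated KO cells (61.4 ± 6.22 and 60.7 ± 3.54 CPM per kb). The other 5 were lower in every group, at or under 17.2 CPM per kb. Gclc and Gclm, the catalytic and modifier subunits of the enzyme that starts glutathione synthesis, stood at 11.8 ± 0.245 and 12.3 ± 0.83 CPM per kb in unstimulated WT cells. Nqo1, a quinone reductase often used as a readout of Nrf2 activity, was at 9.8 ± 1.48, Keap1 at 7.44 ± 0.167, and Osgin1, an oxidative stress-induced growth inhibitor, at 5.21 ± 0.4 CPM per kb.

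By position, all 10 are annotated as protein-coding on GRCm38. Nfe2l2 (ENSMUSG00000015839) lies on chromosome 2 from 75675513 to 75704641 on the minus strand, and Keap1 (ENSMUSG00000003308) on chromosome 9 from 21229730 to 21239361, also on the minus strand. Hmox1 (ENSMUSG00000005413) lies on chromosome 8 from 75093621 to 75100589, plus strand. Nqo1 (ENSMUSG00000003849) lies on the same chromosome from 107388225 to 107403206, minus strand, and Osgin1 (ENSMUSG00000074063) from 119434124 to 119446256, plus strand. Gclc (ENSMUSG00000032350) spans 77754535 to 77794485 of chromosome 9, plus strand. Gclm (ENSMUSG00000028124) spans 122245557 to 122270732 of chromosome 3, plus strand, and Slc7a11 (ENSMUSG00000027737) spans 49892526 to 50443614 of that chromosome, minus strand. Srxn1 (ENSMUSG00000032802) lies on chromosome 2 from 152105516 to 152111376, plus strand, and Txnrd1 (ENSMUSG00000020250) on chromosome 10 from 82833951 to 82897712, plus strand. Exons of Gclm overlap the pseudogene Gm6061 on its own strand and Gm17494 on the other, so its counts from this unstranded kit are uncertain. Exons of Keap1 overlap the antisense gene Gm16754, which the count table does not list, so reads of that gene in the shared exons would count towards Keap1.

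The bases before the start site are shown for 5 members that differed in their response to curdlan: Srxn1, Txnrd1 and Slc7a11, which rose, Gclm, which did not pass the test, and Osgin1, which fell. They are from RefSeq's annotation of GRCm38.p6, 5′ to 3′ on the gene's strand. Exons of some annotated transcripts reach into the last bases of the Srxn1, Slc7a11, Osgin1 and Txnrd1 stretches. Capitals mark matches on either strand to the antioxidant response element core TGACNNNGC, to the amino acid response element TGATGNAAN, or to the AP-1 site TGANTCA. Only stretches that held such a match before the start site were printed, so its presence in each follows from the selection.
Srxn1, chr2:152105274-152105523, plus strand: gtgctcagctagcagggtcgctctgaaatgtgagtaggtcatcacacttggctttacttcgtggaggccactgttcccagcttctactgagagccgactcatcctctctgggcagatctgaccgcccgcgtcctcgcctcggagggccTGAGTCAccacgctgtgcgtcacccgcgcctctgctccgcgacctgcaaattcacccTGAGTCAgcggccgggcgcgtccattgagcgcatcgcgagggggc
Txnrd1, chr10:82858956-82859205, plus strand: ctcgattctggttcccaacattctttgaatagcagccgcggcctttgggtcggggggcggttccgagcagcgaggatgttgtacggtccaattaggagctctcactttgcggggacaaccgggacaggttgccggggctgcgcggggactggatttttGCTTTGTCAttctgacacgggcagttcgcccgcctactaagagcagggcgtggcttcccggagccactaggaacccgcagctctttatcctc
Slc7a11, chr3:50443614-50443863, minus strand: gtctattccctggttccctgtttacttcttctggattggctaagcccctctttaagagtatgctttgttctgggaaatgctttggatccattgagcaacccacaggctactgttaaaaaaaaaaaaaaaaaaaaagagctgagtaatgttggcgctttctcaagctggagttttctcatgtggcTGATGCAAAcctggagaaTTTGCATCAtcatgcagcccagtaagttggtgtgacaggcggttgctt
Gclm, chr3:122245307-122245556, plus strand: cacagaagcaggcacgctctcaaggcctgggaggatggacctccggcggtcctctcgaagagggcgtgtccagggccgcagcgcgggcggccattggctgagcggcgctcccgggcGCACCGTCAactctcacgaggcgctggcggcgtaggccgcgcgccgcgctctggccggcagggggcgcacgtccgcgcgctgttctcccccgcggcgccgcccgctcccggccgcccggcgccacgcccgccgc
Osgin1, chr8:119436897-119437146, plus strand: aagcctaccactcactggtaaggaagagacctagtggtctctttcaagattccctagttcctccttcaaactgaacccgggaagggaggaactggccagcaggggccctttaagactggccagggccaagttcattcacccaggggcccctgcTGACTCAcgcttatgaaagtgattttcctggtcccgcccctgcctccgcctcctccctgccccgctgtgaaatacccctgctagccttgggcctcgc

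Over windows from 250 bases before to 50 after a start site, the core TGACNNNGC matched in 4 of the 8 members with a window (10 windows in all, with none for Hmox1 and Gclc). By window the core matched in 4 of these 10, against 12.4% of all 32851 RefSeq windows of that length. The match lay 240 bases before the start in Nfe2l2, 134 before in Gclm, 92 before in Txnrd1, and 29 after in Srxn1. For Txnrd1 the match and the printed stretch belong to an alternative start inside the gene, the middle of its 3 windows, and the window at the first start held no match to the core. The Osgin1 stretch also lies inside the gene as placed above, which begins at 119434124, and the bases before that end were not searched. Slc7a11 held a pair of matches to TGATGNAAN in opposite orientation, 66 and 48 bases before its start, a motif found in 3.95% of windows. TGANTCA occurred at 102 and 45 bases before the start of Srxn1 and at 97 before that of Osgin1, against 7.81% of windows. No match overlapped another by the letters searched. The core was searched with TGAC only, not with TGAG in its place. The nearer Srxn1 match lies in the letters TGAGTCAGC, and the Osgin1 match lies in the same letters on the other strand. Both are therefore marked for the AP-1 site alone. These matches describe letters in short windows, and binding was not measured.

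Curdlan in WT cells was tested first, to see which of the 10 transcripts moved with the stimulus. Of the 10, 7 rose and 1 fell past an adjusted p of 0.05, where the share over all genes tested was 11.4% higher and 8.4% lower (19.8% in either direction). With the library number as a replicate block, 7276 of the tested genes passed the threshold in place of 3759, and 9 members in place of 8. A block with the other numbering of the WT curdlan libraries, that of the authors' comparison table, gave 4815 genes and 8 members. Without WT curdlan library 4 the number of genes was 2170, of which 7 were members. The members' median log2 fold change was 0.58, and that of all genes was -0.03. Scaling by library size alone put the median of all genes lower, at -0.17 for curdlan in WT, -0.20 for curdlan in KO, -0.19 for KO against WT without curdlan and -0.24 with it, and the members' medians at 0.44, 0.16, 0.30 and 0.06. The 3 libraries of each state did not overlap for the same 7 genes in the upward direction, as for 21.1% of all genes, or for Osgin1 downward, as for 23.4% of all genes.

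Nfe2l2 itself measured 475, 467 and 523 CPM in libraries 1, 2 and 4 of unstimulated WT cells, and 1129, 1055 and 1090 CPM after curdlan. Every curdlan library was above every unstimulated one, and the fold was 2.23 (log2 1.16 ± 0.08, SE, edgeR adjusted p = 1.77e-06). Slc7a11 went from 417, 486 and 487 CPM to 922, 975 and 1103 CPM, a fold of 2.16 (log2 1.11 ± 0.09, edgeR adjusted p = 9.32e-06). The import of cystine that it carries out feeds glutathione synthesis. Hmox1 stood at 360, 337 and 324 CPM before and 706, 625 and 685 CPM after curdlan. The libraries again separated, with a log2 fold change of 0.98 ± 0.11 (edgeR adjusted p = 7.05e-05).

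Txnrd1 and Srxn1 also rose. Txnrd1 went from 368, 407 and 392 CPM to 704, 719 and 801 CPM (log2 0.93 ± 0.08, edgeR adjusted p = 1.38e-05). Srxn1 measured 143, 149 and 145 CPM, then 245, 239 and 263 CPM (log2 0.78 ± 0.08, edgeR adjusted p = 2.85e-05). For both, the lowest curdlan library was well above the highest unstimulated one.

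Smaller rises were found for the catalytic glutathione enzyme and for the Nrf2 inhibitor. Gclc rose from 45.5, 44.1 and 43.7 CPM to 59.4, 57.1 and 56.4 CPM, by 0.38 ± 0.09 on the log2 scale (edgeR adjusted p = 0.0101). Scaled by library size alone, its adjusted p was 0.0603. Keap1 rose from 34.2, 35.8 and 34.8 CPM to 40.1, 40.1 and 46.4 CPM (log2 0.27 ± 0.07, edgeR adjusted p = 0.0167). This call rested on single libraries, since the adjusted p was 0.0608 without unstimulated WT library 1, 0.0589 without unstimulated WT library 4 and 0.0854 without WT curdlan library 4. By library size alone Keap1 was also not past the threshold (0.144).

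For Nqo1 and Gclm no rise passed the test in WT cells. Nqo1 went from 14, 17.9 and 13.8 CPM to 17.5, 20.1 and 17.4 CPM, and the states overlapped (log2 0.27 ± 0.1, 95% interval 0.04 to 0.49, edgeR adjusted p = 0.0888). With the library number as a replicate block the same difference was past the threshold (0.28, adjusted p = 0.00525), though not with the other numbering, and it was also past it without unstimulated WT library 2 (0.40, adjusted p = 0.0155). Gclm measured 75.8, 83.2 and 73.1 CPM, then 82.3, 82.7 and 76.1 CPM (log2 0.05, 95% interval -0.15 to 0.26, edgeR adjusted p = 0.737). The subunits of the glutathione-making enzyme thus had different calls, though the difference between the genes was not tested.

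Osgin1 was the member that fell. It went from 14.8, 14.2 and 12.7 CPM to 7.83, 7.63 and 6.63 CPM, so each curdlan library was at about the same lower level. The log2 fold change was -0.92 ± 0.11 (edgeR adjusted p = 9.34e-05), a 1.89-fold fall, from 738 to 1039 counts per library to 346 to 401.

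**Figure D1:**
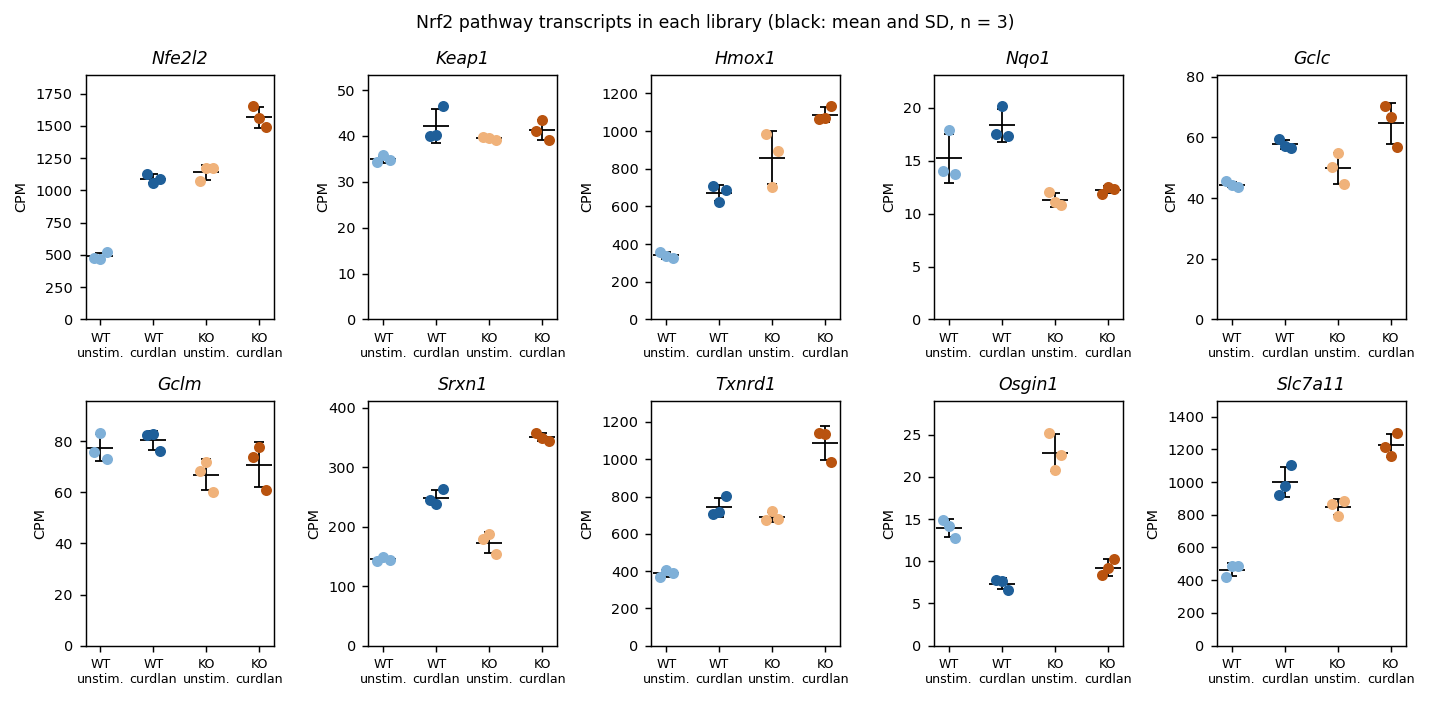
Level of each of the 10 transcripts in each library (points, CPM on a linear axis from 0) with the mean and SD of the 3 libraries of each group in black. By group mean Nfe2l2, Hmox1, Txnrd1, Slc7a11, Srxn1 and Gclc were lowest in unstimulated WT and highest in KO cells with curdlan, though Gclc overlapped between genotypes. Osgin1 was lower with curdlan in both genotypes, and Nqo1 was lower in the libraries labelled KO.

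In the libraries labelled KO, curdlan was compared with no stimulus in the same way. Here 6 members rose and 1 fell, against 14% higher and 14.6% lower over all genes (28.6% in either direction). The states did not overlap for these 7 genes, as for 18.6% of all genes upward and 19.5% downward. In both genotypes 6 members rose, where 6.07% of all genes did, and 1 fell, where 4.45% did. The members' median log2 fold change was 0.36, and that of all genes was -0.001. Srxn1 had the largest rise among the members, from 179, 187 and 154 CPM in KO libraries 1, 2 and 5 to 358, 350 and 345 CPM in KO libraries 2, 4 and 5. The groups were far apart, at a fold of 2.03 (log2 1.02 ± 0.08, edgeR adjusted p = 4.53e-06). Txnrd1 rose from 672, 723 and 679 CPM to 1142, 1138 and 984 CPM (log2 0.65 ± 0.08, edgeR adjusted p = 0.000161). Slc7a11 rose from 863, 790 and 884 CPM to 1213, 1156 and 1301 CPM (log2 0.53 ± 0.09, edgeR adjusted p = 0.00134).

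Nfe2l2 rose from 1072, 1175 and 1176 CPM to 1651, 1560 and 1489 CPM (log2 0.46 ± 0.08, edgeR adjusted p = 0.00102), and its states did not overlap. Gclc went from 50.2, 54.8 and 44.5 CPM to 70.2, 66.6 and 57 CPM (log2 0.38 ± 0.09, edgeR adjusted p = 0.00784). Its adjusted p was 0.148 by library size alone and 0.0557 in a fit of these 2 groups. Hmox1 measured 984, 703 and 893 CPM, then 1062, 1072 and 1131 CPM. The unstimulated libraries were spread more widely than in WT, and the rise was 0.34 ± 0.11 on the log2 scale (edgeR adjusted p = 0.0342).

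The Hmox1 call in KO cells was lost without KO unstimulated library 2 (log2 0.21, adjusted p = 0.0985), KO unstimulated library 5 (0.0518), KO curdlan library 4 (0.0673) or KO curdlan library 5 (0.0936). It was also lost in a fit of the 2 groups alone (0.113) and by library size alone (log2 0.14, adjusted p = 0.32). Osgin1 fell again, from 25.2, 20.8 and 22.6 CPM to 8.33, 9.21 and 10.2 CPM (log2 -1.31 ± 0.11, edgeR adjusted p = 8.08e-06), a 2.47-fold fall with no overlap.

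Keap1, Nqo1 and Gclm did not pass the test in KO cells. Keap1 stood at 39.9, 39.5 and 39 CPM and then at 41, 43.5 and 39.2 CPM (log2 0.06, 95% interval -0.09 to 0.22). Nqo1 was at 12.1, 11.1 and 10.8 CPM and then at 11.9, 12.6 and 12.4 CPM (log2 0.12, 95% interval -0.12 to 0.35). Gclm was at 68.3, 71.9 and 60.2 CPM and then at 73.7, 77.6 and 61 CPM (log2 0.08, 95% interval -0.13 to 0.29). The states overlapped for all 3 genes, and the intervals do not exclude small rises.

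**Figure D2:**
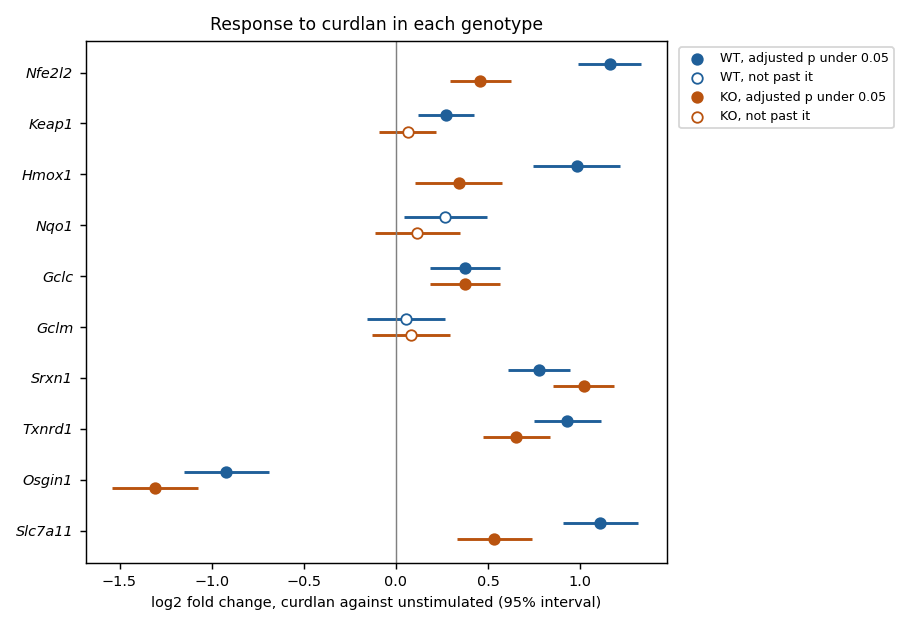
Response of each member to curdlan (log2 fold change, points) with its 95% interval (lines) in WT (blue) and in the libraries labelled KO (orange), filled where the edgeR adjusted p was under 0.05. The intervals for Nfe2l2, Hmox1 and Slc7a11 lie higher in WT, those for Gclc coincide, and both Osgin1 responses lie below 0.

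Whether the curdlan responses differed between genotypes was tested as the response in KO minus that in WT. Of the members, 3 had a smaller response in KO past the threshold and none a larger one, where 3.6% of all genes were lower and 1.61% higher (5.21% in either direction). At an unadjusted p under 0.05 edgeR gave 1 member with a larger response, Srxn1, and DESeq2 gave 0 past the adjusted threshold. Nfe2l2 rose by 1.16 in WT and 0.46 in KO, a difference of -0.70 ± 0.11 (edgeR adjusted p = 0.00652), and this call was kept under all 18 alternatives, with an adjusted p of at most 0.0273. Hmox1 rose by 0.98 and 0.34, a difference of -0.64 ± 0.15 (edgeR adjusted p = 0.034). Slc7a11 rose by 1.11 and 0.53, a difference of -0.58 ± 0.13 (edgeR adjusted p = 0.0285). For these genes the KO cells began from a higher unstimulated level and also ended at a higher level with curdlan.

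The Hmox1 and Slc7a11 differences were less firm than that of Nfe2l2. Hmox1 was not past the threshold without WT unstimulated library 1 (adjusted p = 0.0623), 2 (0.0717) or 4 (0.0797), or without WT curdlan library 1 (0.063), 2 (0.0629) or 4 (0.0766). The same held without KO unstimulated library 1 (0.0846) or 5 (0.0655) and without KO curdlan library 4 (0.0662). Slc7a11 was not past it without WT unstimulated library 1 (0.0761) or 2 (0.0501), WT curdlan library 2 (0.0709) or 4 (0.0685), KO unstimulated library 1 (0.0714) or 5 (0.0571), or KO curdlan library 4 (0.0555). In each of these fits the difference kept its sign.

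No difference passed the test for the other 7 members, which does not show that they responded alike. Txnrd1 differed by -0.28 (95% interval -0.53 to -0.02, edgeR adjusted p = 0.166). With the library number as a replicate block it was past the threshold (-0.33, adjusted p = 0.0299), though not with the other numbering. Srxn1 pointed the other way, at 0.24 (95% interval 0.01 to 0.48, edgeR adjusted p = 0.183). For Osgin1 the value was -0.39 (95% interval -0.71 to -0.06, edgeR adjusted p = 0.133), with the larger fall in KO. Keap1 differed by -0.21 (-0.43 to 0.01), Nqo1 by -0.15 (-0.48 to 0.17), Gclm by 0.03 (-0.27 to 0.33) and Gclc by -0.001 (-0.27 to 0.27), each with its 95% interval.

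The genotypes were then compared within each state. These comparisons use the same libraries as those of curdlan, so the values are set side by side and not counted as separate support. Without curdlan, 6 members were higher and 1 lower in the libraries labelled KO. Over all genes 21.1% were higher and 23.3% lower (44.4% in either direction), so a call was common here, and the ranges did not overlap for 26.3% upward and 29.8% downward (7 and 2 of the members). The members' median log2 fold change was 0.48, against -0.01 for all genes.

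Hmox1 was 2.53-fold higher in unstimulated KO than in unstimulated WT cells (log2 1.34 ± 0.11, edgeR adjusted p = 1.64e-06), and its lowest KO library (703 CPM) was above its highest WT library (360 CPM). Nfe2l2 was 2.34-fold higher (log2 1.22 ± 0.08, edgeR adjusted p = 2.14e-07). Slc7a11 (0.87 ± 0.09) and Txnrd1 (0.83 ± 0.08) were higher by similar log2 differences, with edgeR adjusted p of 1.39e-05 and 8.24e-06. Osgin1, which fell with curdlan, was higher in KO by 0.72 ± 0.10 on the log2 scale (edgeR adjusted p = 0.000137). In these 5 genes no KO library reached down to the WT range.

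Srxn1 was higher in unstimulated KO cells by only 0.25 ± 0.08 on the log2 scale (edgeR adjusted p = 0.017). This call was lost without WT unstimulated library 1 (0.0565) or 4 (0.054) or KO unstimulated library 1 (0.0614) or 2 (0.0796), and by library size alone (log2 0.07, adjusted p = 0.452). Nqo1 was the member that was lower, at 12.1, 11.1 and 10.8 CPM against 14, 17.9 and 13.8 CPM (log2 -0.43 ± 0.10, edgeR adjusted p = 0.00551). Keap1 (0.18, 95% interval 0.02 to 0.33), Gclc (0.16, -0.03 to 0.36) and Gclm (-0.21, -0.42 to -0.002) did not pass the threshold. Keap1 passed it when a curdlan library was left out of the fit (adjusted p = 0.036 without WT curdlan library 4 and 0.0326 without KO curdlan library 5), as it did in a fit of these 2 groups (0.0407). Gclc passed it without KO curdlan library 5 (0.0449). Scaled by library size alone, Gclm was called lower (-0.39, adjusted p = 0.005). With the Srxn1 call lost by that scaling, the members were then 5 higher and 2 lower (71.4% of those called were higher, against 85.7% by the main scaling).

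With curdlan in both genotypes, 6 members were higher and 1 lower in KO, against 24.7% and 26.8% of all genes (51.4% in either direction). The ranges did not overlap for 6 members upward and 1 downward, against 27.4% and 29.5% of all genes. Scaled by library size alone, 4 members were higher and 3 lower (57.1% of those called were higher, against 85.7% by the main scaling). The median was 0.31 for the members and 0.01 for all genes. Hmox1 was higher by 0.70 ± 0.11 (edgeR adjusted p = 0.000222), Txnrd1 by 0.55 ± 0.08 (0.000171), Nfe2l2 by 0.52 ± 0.08 (0.000141) and Srxn1 by 0.50 ± 0.08 (2e-04) on the log2 scale. In this state Nqo1 was lower by a log2 difference of -0.58 ± 0.11 (edgeR adjusted p = 0.000658), with KO libraries between 11.9 and 12.6 CPM and WT libraries between 17.4 and 20.1 CPM. Keap1 (-0.03, 95% interval -0.19 to 0.12), Gclm (-0.18, -0.39 to 0.03) and Gclc (0.16, -0.03 to 0.36) did not pass the test. Gclc was past it without KO curdlan library 5 (0.24, adjusted p = 0.0266). By library size alone Keap1 (-0.28, adjusted p = 0.00435) and Gclm (-0.43, adjusted p = 0.00247) were called lower.

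Osgin1 (0.33 ± 0.11, edgeR adjusted p = 0.0234) and Slc7a11 (0.29 ± 0.09, edgeR adjusted p = 0.0199) were called higher with less margin. Without WT curdlan library 4 or KO curdlan library 5 Osgin1 was not past the threshold (0.0957 and 0.0933). Slc7a11 was not past it without WT curdlan library 1 (0.0842), WT curdlan library 2 (0.0687) or KO curdlan library 5 (0.071), or in a fit of these 2 groups (0.0546). By library size alone neither was (0.544 for Osgin1 and 0.687 for Slc7a11). In the authors' deposited table of this comparison the adjusted p was 0.0638 for Osgin1 and 0.028 for Slc7a11.

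**Figure D3:**
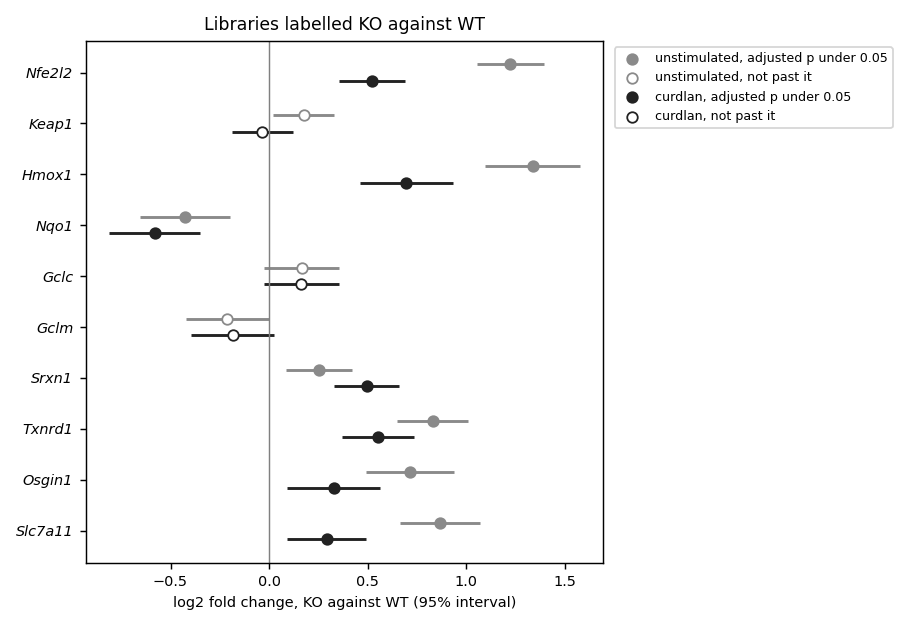
Libraries labelled KO against WT (log2 fold change, points, with 95% intervals as lines) for each member without curdlan (grey) and with curdlan (black), filled where the edgeR adjusted p was under 0.05. Hmox1 and Nfe2l2 lie farthest to the right without curdlan, at 1.34 and 1.22, and Nqo1 lies below 0 in both states.

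Across all 4 groups the members followed several orders, given here as a description. For Nfe2l2, Hmox1 and Txnrd1 the range of unstimulated KO cells overlapped that of WT cells with curdlan (for Nfe2l2, 1072 to 1176 against 1055 to 1129 CPM), with unstimulated WT below both and KO with curdlan above both. Slc7a11 had the same lowest and highest groups, but its unstimulated KO libraries (790 to 884 CPM) lay just under the WT curdlan libraries (922 to 1103 CPM). The Hmox1 overlap rested on 1 unstimulated KO library, at 702.9 CPM against a highest WT curdlan library of 706.1 CPM. The other unstimulated KO libraries were above that, at 893 and 983.5 CPM. In Srxn1 the curdlan groups were the upper pair, in the order unstimulated WT, unstimulated KO, WT with curdlan, KO with curdlan, with no overlap between neighbours. Osgin1 had both curdlan groups lowest and unstimulated KO cells highest, again without overlap. Gclc overlapped between genotypes in either state, Nqo1 overlapped between states in either genotype, and neighbouring groups of Gclm overlapped throughout.

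The summed markers of several other cell types differed between the libraries by genotype. The 7 macrophage markers summed to 1680 to 1870 CPM in unstimulated WT and 2522 to 3072 CPM in unstimulated KO libraries. The 4 markers of iron-recycling macrophages, cells known for high Hmox1, summed to 39.4 to 48.4 and 71.9 to 81.8 CPM. With curdlan the same sum was 47.9 to 52.7 CPM in WT and 55.1 to 65.1 CPM in KO libraries, so in KO the states did not overlap. That fall in KO came from Slc40a1, 1 of the 4, at 35.6 CPM on average without and 19.5 CPM with curdlan. Spic (6.96 and 7.64 CPM), Cd163 (6.90 and 7.83 CPM) and Vcam1 (26.54 and 26.53 CPM) did not share it. Single markers also differed between states, as for the phagocytic receptor Mertk in KO (126.3 and 281.9 CPM on average without and with curdlan) and Vcam1 in WT (12.8 and 24.1 CPM). For the 8 neutrophil markers the ranges were 4572 to 5812 and 6487 to 10210 CPM, and for the 5 mast cell and basophil markers 36.4 to 45.5 and 148 to 297.5 CPM. Among the 6 dendritic cell markers Itgax was lower in unstimulated KO libraries (788 against 1488 CPM on average) while H2-Ab1 was higher (1875 against 733.5 CPM). No listed marker was at 0 in every library. These lists moved with the same genotype label as Hmox1, Nfe2l2, Slc7a11, Txnrd1, Osgin1 and Nqo1. Their part in those differences, and in the responses to curdlan, was not tested. In bulk RNA, fewer cells of a type and less RNA per cell cannot be told apart.

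Around the 10 members, the partners and regulators of Nrf2 were followed as a list. With curdlan in WT cells 5 of 10 rose, 1 fell and 4 did not pass the test, against 11.4% higher and 8.4% lower over all genes, with a median log2 fold change of 0.26. Maff, a small Maf that can pair with Nrf2, rose by 1.62 ± 0.08 (edgeR adjusted p = 1.45e-07), and Sqstm1, the autophagy receptor p62 that binds Keap1, by 1.04 ± 0.16 (adjusted p = 0.000726). Mafk, another small Maf, rose by 0.50 ± 0.11 in WT and 1.21 ± 0.11 in KO cells. Its response was larger in KO (0.71 ± 0.16, edgeR adjusted p = 0.0245), while that of Maff was smaller (-0.51 ± 0.11, edgeR adjusted p = 0.0232). Both calls were lost when some single libraries were left out (adjusted p up to 0.0772 for Mafk and 0.0613 for Maff). In KO the list had 5 rises and 2 falls, against 14% higher and 14.6% lower over all genes. Nfe2l1, a relative of Nrf2, went up with curdlan in WT (236.2 to 298.8 CPM on average) and down in KO (298.9 to 249.5 CPM). The difference of its responses was -0.60 ± 0.11 (edgeR adjusted p = 0.0126). By this test of KO minus WT, 1 of the 10 was higher and 2 lower, against 1.61% and 3.6% of all genes. Without curdlan Sqstm1 (1.75 ± 0.16) and Maff (1.43 ± 0.08) were higher in libraries labelled KO. Of the 10, 5 were higher and 1 lower there, against 21.1% and 23.3% of all genes. Exons of Sqstm1 and Mafk overlap genes on the other strand, so their counts are uncertain in an unstranded kit.

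Few glutathione and thioredoxin genes outside the 10 passed the test for curdlan in WT cells, a share near the 19.8% of all genes. Of 10 tested genes of glutathione use and regeneration (11 listed, Gsta4 failing the filter), 1 rose, and of 8 thioredoxin and peroxiredoxin genes 2 fell. In the opposite directions the count was 0 by edgeR, at an unadjusted p under 0.05 and by DESeq2. The riser was Slc3a2, the heavy chain that pairs with Slc7a11, at 0.29 ± 0.07 (edgeR adjusted p = 0.00949), which was not past the threshold by library size alone (0.1). Txnip, an inhibitor of thioredoxin, fell by 0.78 on the log2 scale (SE 0.13, edgeR adjusted p = 0.00133). In KO cells 3 of the 8 thioredoxin and peroxiredoxin genes rose and 1 fell, against 14% higher and 14.6% lower over all genes. Prdx1, a peroxiredoxin, rose there by 0.88 ± 0.10 (edgeR adjusted p = 9.58e-05). Its response was larger in KO than in WT (0.76 ± 0.15, edgeR adjusted p = 0.0138, or 0.0509 with a replicate block on the other numbering of the WT curdlan libraries). Without curdlan, Gss, the enzyme that completes glutathione, was lower in KO (-0.98 ± 0.08, edgeR adjusted p = 1.15e-06), though its exons overlap other genes on the opposite strand.

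None of the 6 NADPH-supplying genes passed the test with curdlan in WT, by edgeR, against 0 higher and 2 lower at an unadjusted p under 0.05 and 0 higher and 1 lower by DESeq2. In unstimulated KO against WT cells, where 23.3% of all genes were lower, 3 of the 6 were lower and 0 higher (also 0 higher unadjusted and by DESeq2), among them Me1, the malic enzyme (-1.09 ± 0.14, edgeR adjusted p = 5.19e-05). Of the 9 haem and iron genes, 2 rose and 1 fell with curdlan in WT, and 1 rose and 3 fell in KO, where 19.8% and 28.6% of all genes passed the test in either direction. The 3 WT calls had little margin: Tfrc (0.0816) and Blvra (0.0779) lost theirs by library size alone. Tfrc, the transferrin receptor, was also not past the threshold without WT unstimulated library 1 (0.0965) or 4 (0.0545) or WT curdlan library 2 (0.0553) or 4 (0.111). Blvra was not past it without WT unstimulated library 2 (0.0602) or 4 (0.0556) or WT curdlan library 1 (0.0506) or 4 (0.0584). The fall of Slc40a1 in WT was lost without WT unstimulated library 2 (0.0607) or 4 (0.131) or WT curdlan library 1 (0.0911) or 4 (0.0876). In KO cells Slc40a1, the iron exporter ferroportin, fell by 0.87 on the log2 scale (SE 0.10, edgeR adjusted p = 7.65e-05), and Blvra, which reduces the biliverdin that haem oxygenase makes, rose by 0.82 ± 0.09 (adjusted p = 7.09e-05). Without curdlan, where 21.1% of all genes were higher, 4 of the 9 were higher in KO and 0 lower (0 unadjusted and 0 by DESeq2), including the ferritin light chain Ftl1 (0.45 ± 0.10, edgeR adjusted p = 0.00237).

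Genes of the ATF4 and amino acid response, which also has Slc7a11 as a known target, rose in WT for 4 of 8, against 11.4% of all genes, with 0 falls by edgeR, unadjusted or by DESeq2. Trib3, a pseudokinase induced by ATF4, rose by 0.66 ± 0.09 in WT and differed by -0.89 ± 0.12 between genotypes (edgeR adjusted p = 0.0046). Sesn2, a stress-induced leucine sensor, rose by 0.48 ± 0.10 in WT and fell by 0.50 in KO, a difference of -0.98 ± 0.14 (edgeR adjusted p = 0.00516). These were the 2 of 8 with a different response by edgeR, both lower in KO, where 3.6% of all genes were lower. DESeq2 gave 4 of 8, all lower. At an unadjusted p under 0.05 edgeR gave 4 lower and 1 higher, the latter being Atf4 itself (0.39). Without curdlan 5 of the 8 were higher in KO, against 21.1% of all genes, with 0 lower on the same 3 counts and with Trib3 at 1.19 ± 0.09 (edgeR adjusted p = 6.81e-07). Among the 4 superoxide dismutase and catalase genes, Sod2, the mitochondrial enzyme, was higher in unstimulated KO by 1.00 ± 0.15 (edgeR adjusted p = 0.000215). Of the 4, 2 were higher and 2 lower there, against 21.1% and 23.3% of all genes. The lower calls, Sod1 (-0.22, edgeR adjusted p = 0.0432) and Cat (-0.34, edgeR adjusted p = 0.0245), were less firm. Sod1 was not past the threshold by DESeq2 (0.0568), without the filter (0.0523), in a fit of the 2 groups (0.0593), with a replicate block (0.0823) or in 9 of the 12 fits that left out a library (0.0524 to 0.158), all but those without KO unstimulated library 2 and KO curdlan libraries 2 and 4. Cat was not past it without WT unstimulated library 1 (0.0543), 2 (0.0813) or 4 (0.0509) or KO unstimulated library 5 (0.106).

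**Figure D4:**
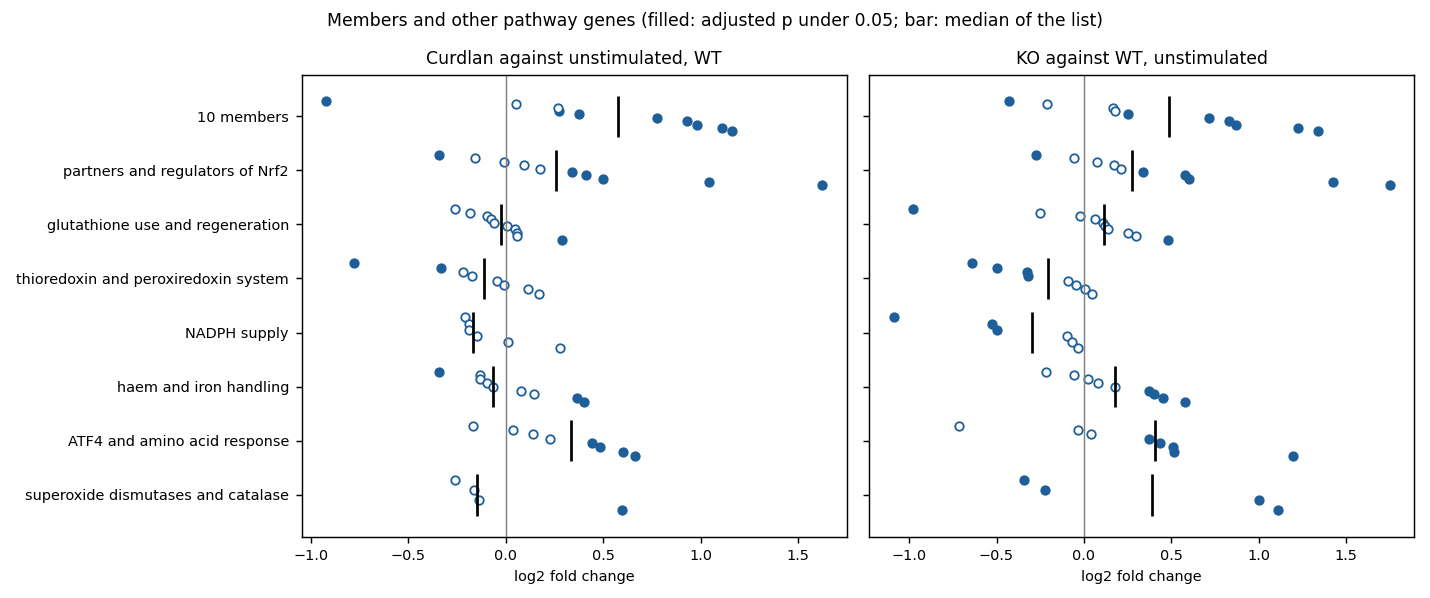
Log2 fold changes of the 10 members and of 7 lists of other pathway genes (1 point a gene, filled where the edgeR adjusted p was under 0.05, black bar at the median) for curdlan in WT (left) and for libraries labelled KO against WT without curdlan (right). The members' medians, 0.58 and 0.48, stand beside those of the Nrf2 partners at 0.26 and 0.28, while the NADPH supply list has medians of -0.17 and -0.30.

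Among themselves the members were compared by their pattern over the 12 libraries. The Pearson r of log2 CPM was 0.97 for Nfe2l2 with Txnrd1, 0.96 with Slc7a11 and 0.96 with Hmox1, and 0.93 for Gclc with Srxn1. Osgin1 was negatively related to Srxn1 (-0.67) and Gclc (-0.62). Over 9557 candidate genes, those most like Nfe2l2 were Tbk1 (r = 0.99) and Tob2 (0.99), those most like Hmox1 were Mmp14 and Ehd1 (both 0.99), and those most like Slc7a11 were Ppp1r10 and Rab11fip1 (both 0.99). Srxn1 was closest to Ccnyl1 and Cd80, Txnrd1 to Usp42 and Itga5 (all 0.99 or above), and Osgin1 to B3gnt8 (0.99) and Tmem154 (0.97). The values were lower for Gclc (Nudt9 0.96, Snx16 0.96), Nqo1 (Rnf170 0.95, Rab7b 0.95), Keap1 (Foxp4 0.94, Mtf1 0.92) and Gclm (Anxa4 0.94, Cpeb1 0.93). The 12 points share 4 groups, 4 lanes and their scaling, so these values describe a pattern of group means.

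The authors also deposited a table named for an interaction. Over the 18981 tested genes its log2 fold changes lay within 0.1 of KO against WT without curdlan for 98.57%, and within 0.1 of the difference of curdlan responses for 11.98%. In the authors' deposited table Nfe2l2 had 1.23, Hmox1 1.35 and Slc7a11 0.88, where the difference of responses above was negative for all 3. For these genes the table therefore gives the unstimulated genotype difference, and its values were not used as a test of the response.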

How the data were processed

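The 12 RNA libraries of dendritic cells were made with a kit that does not mark strand, per the labels' protocols. The deposited counts are raw whole reads for each gene. FastQC 0.11.1, TopHat2 2.4.2a (as written there), SAMtools 1.2, featureCounts 1.4.6 and DESeq2 1.8.2 are named in the submitters' processing notes. Not given in the sources used here are the build, the annotation, the strand setting and how multiply mapped reads were handled. Besides the counts, the authors deposited 2 tables of comparisons with log2 fold changes and their p-values and adjusted p-values, per the file headers. Another 18 columns of normalized values were not used.

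From the counts, genes passing filterByExpr were scaled by TMM factors and tested with the two-sided quasi-likelihood test of edgeR 4.0.16 (R 4.3.3), in 1 fit of 12 libraries and 4 group means. Benjamini-Hochberg adjusted p-values over all 18981 genes tested, under 0.05, were past the threshold. CPM values use effective library sizes. The fit was tested on simulated data, where fewer differences of responses than changes between a pair of groups were recovered, so a difference not called is weak evidence. Alternatives were library size alone, upper-quartile factors, DESeq2 1.42.0, no filter, a fit of the groups compared, a replicate block, and leaving out each library. The members and the 7 pathway and 8 marker lists were chosen with earlier results of these data known. Besides the members and the Vav genes, the rule named per list and comparison up to 3 genes past the threshold by size whose mean log2 CPM was 2 or more, of which some are given, and per member the 2 genes with the highest r of log2 CPM (prior count 2). Coordinates are those of GENCODE M21 (GRCm38), matched by Ensembl identifier for 17588 tested genes and not for 1393. The promoter windows are RefSeq's.

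No replicates were merged, since those of each group had a chi-square per degree of freedom of 9.59 to 78.9. Deviations from the group means correlated between same-numbered WT libraries across states (0.40, 0.24 and 0.13), a hint from the data that the numbers may pair the WT samples. The main fit held no term for pairing, which entered only through the replicate block among the alternatives. The authors' comparison table numbers the WT curdlan columns in another way, under which the correlations were -0.24, 0.08 and -0.16. In KO only 2 numbers are shared (0.29 and 0.56). Between genotypes same-numbered libraries correlated at -0.15 to 0.08.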

Additional observations from a re-analysis of the deposited data

Results flagged for a closer look

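The response to curdlan differed between the genotypes for 3 of the 10 members in a test of the difference itself, in 1 fit of all 12 libraries with edgeR. The value is the log2 response in the libraries labelled KO minus that in WT. It was -0.702 for Nfe2l2, -0.642 for Hmox1 and -0.577 for Slc7a11, with the smaller rise in KO each time. The Nfe2l2 difference was past the threshold in all 18 alternatives run. That of Hmox1 was lost in 10 of 18 and that of Slc7a11 in 7 of 18, in each case with the sign kept. Groups of 3 libraries are too small for a check of single libraries that stand apart.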

How the results depend on the processing

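Over the 10 members and 5 comparisons, 838 results of single alternatives kept their direction and side of the threshold, 44 lost the call, 14 gained one and 24 changed sign. The sign changes were all of values that had not passed the threshold. By library size alone they were Gclm (-0.078 for curdlan in WT, -0.115 in KO, -0.036 for the difference), Nqo1 (-0.082) and Keap1 (-0.135) for curdlan in KO, Keap1 (-0.005) and Gclc (-0.016) for KO against WT without curdlan, and Gclc (-0.081) with it. The difference for Gclc was 0.044 with upper-quartile factors and that for Gclm -0.028 with either replicate block. With a library left out, the difference ranged from -0.046 to 0.092 for Gclm and from -0.077 to 0.072 for Gclc, and Keap1 in KO against WT with curdlan ranged from -0.08 to 0.039.

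Of all genes, curdlan in WT called 3759, 6123 by library size alone and 7276 with the replicate block. Curdlan in KO called 5425, and 3142 in a fit of the 2 groups. The difference called 989, 2204 by DESeq2 and 2671 with the replicate block. With a library left out the calls ranged from 2170 (WT curdlan 4) to 4216 for curdlan in WT, 3490 (KO unstimulated 1) to 6074 in KO and 366 (WT curdlan 2) to 2837 (KO curdlan 2) for the difference, and the members called for the difference from 1 to 3. The share of higher calls moved from 57.6% to 25.1% (library size) or 46.3% (upper quartile) for curdlan in WT, from 49% to 17.9% (library size) in KO, from 30.8% to 15.7% or 42% for the difference, from 47.5% to 26.4% for KO against WT without curdlan, and from 48% to 23.7% with it. The replicate block across genotypes, whose numbers do not pair the samples, ended the Slc7a11 call with curdlan (adjusted p = 0.051) and added Keap1 (0.0255) and Gclc (0.0146) without curdlan and Gclc (0.0103) with it. A block with the other WT curdlan numbers, added after seeing the data, ended the Hmox1 difference (0.0694), and called 682 genes for the difference and 4815 for curdlan in WT. The block by the labels' numbers changed no other member's call beyond Nqo1 and Txnrd1, given above, and with the other numbers neither was past the threshold. The causes were not tested. Each member held at least 333 counts in every library.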
